A study of Mus musculus with 311 samples.

Results

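The collagen genes are those whose symbol is Col, a number, the letter a and a number. The array carried 39 probes for 34 of them, and 32 genes, of 11387 genes measured in all, had a probe with a value on at least 95% of the arrays. Each gene was read from 1 probe, the probe with the fewest missing values and, at ties, the earliest listed. Probes whose identifiers belonged to a mouse gene were taken first. The 32 genes comprised 9 fibrillar collagens, 6 basement membrane collagens, 7 network-forming collagens of types VI, VIII and X, and 10 collagens of other kinds. Col4a2 and Col18a1 missed the share, with 8.04% and 7.07% of values missing. Col3a1 was not analysed here.

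The samples were livers of 311 F2 mice from a cross of the C57BL/6J and C3H/HeJ strains. Every animal carried the ApoE null background and ate a Western diet from 8 to 24 weeks of age, so no animal was without the null allele or the diet. The RNA of each animal (Cy3) was hybridised on a two-colour array against a reference (Cy5) that pooled equal amounts of the animals' RNA. A value is therefore the log10 ratio of an animal over that pool, and it carries no absolute level, so the tissue label could not be checked against hepatocyte markers. The labels name both sexes but not the sex of an animal. The arrays were therefore read in 2 strata, split at -0.5 on the Y-linked gene Eif2s3y: 155 Eif2s3y-high arrays (-0.219 to 0.527) and 156 Eif2s3y-low arrays (-1.76 to -0.875). These strata were defined from the values, so their results are given side by side and differences between them were not tested. Array medians lay between -0.0218 and 0.0172, and the SD over probes between 0.0658 and 0.206.

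Collagens are trimers of chains that wind into a triple helix. Fibrillar types I, II, III, V, XI and XXVII assemble into fibres, with type I the main chain of scar tissue and type V a regulator of fibre diameter. Type IV forms the sheet of basement membranes, to which types VII, XV and XVIII attach, and type VI forms beaded filaments between fibres. In liver, stellate cells and portal fibroblasts are the main known makers of fibrillar collagen, and sinusoids normally hold little continuous basement membrane. Lumican (Lum) is a small proteoglycan that binds collagen fibres, and lysyl oxidase (Lox) starts their crosslinking. Since whole liver was measured, more cells of a type and more RNA per cell cannot be told apart.

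Col1a1, the major chain of type I collagen, spread most widely of the 32 genes. Its ratio ran from 0.151-fold through a median of 1.06-fold to 8.33-fold of the pool over 155 Eif2s3y-high animals. Over 156 Eif2s3y-low animals it ran from 0.129-fold through 0.719-fold to 2.46-fold. The ranges overlapped, and 31 Eif2s3y-high but 5 Eif2s3y-low animals stood at 2-fold of the pool or above. Its SD was 4.86 times the median SD of all genes in the Eif2s3y-high stratum and 3.84 times it in the other, and its 5th to 95th percentile spanned 9.73-fold and 6.39-fold.

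The other fibrillar chains varied less, but as a group more than most genes. The median SD of the 9 fibrillar genes was 1.60 and 1.81 times that of all genes (Eif2s3y-high value first, here and below). Col27a1, a chain of thin cartilage-type fibres, stood at 2.56 and 2.17 times, Col5a2 at 2.34 and 2.15 times, and Col11a1, a chain of cartilage fibres, at 2.32 and 2.34 times. Col5a3 reached 1.60 and 1.81 times, and Col5a1 1.60 and 1.37 times. Col2a1, the main cartilage collagen, varied about as a typical gene (0.988 and 1.01 times), and Col11a2 varied less (0.618 and 0.746 times). Of Col1a2, the partner chain of Col1a1 in type I collagen, the probe used varied 1.39 and 0.962 times as much as a typical gene.

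Col5a2 ratios ran from 0.443-fold through 0.908-fold to 2.56-fold in the Eif2s3y-high stratum and from 0.423-fold through 0.948-fold to 2.82-fold in the other, with nearly the same range in both. Col5a3 and Col27a1 did not overlap so evenly. The Col5a3 median was 1.37-fold of the pool against 0.691-fold, and 18 Eif2s3y-low but 0 Eif2s3y-high animals lay at or below 0.5-fold. The Col27a1 median was 1.28-fold against 0.702-fold, and 13 Eif2s3y-high but 0 Eif2s3y-low animals reached 2-fold. Neither difference was tested, since the strata came from the values.

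Basement membrane chains varied moderately, with a median of 1.2 and 1.23 times the typical SD and no gene at or above 2 times. Col4a1, a chain of the common type IV sheet, led the Eif2s3y-high stratum at 1.94 and stood at 1.65 in the other, where Col4a4 led at 1.93. That Col4a4 value includes its lowest animal, at 0.0682-fold. Its 5th to 95th percentile there spanned only 1.63-fold, beside 2.23-fold for Col4a1. The Col4a1 ratio ran from 0.412-fold through 0.995-fold to 1.97-fold and, in the other stratum, from 0.503-fold through 0.963-fold to 1.75-fold. Col15a1, which joins basement membrane to the tissue below, stood at 1.60 and 1.58 times. Col4a3, a chain of the kidney glomerular sheet, and Col7a1, the anchoring fibril of skin, varied less than a typical gene (0.706 and 0.747 times, and 0.697 and 0.677 times).

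Among network chains, Col6a3, a long chain of type VI filaments, varied most, at 2.79 and 2.44 times the typical SD. Its ratio ran from 0.333-fold through 0.943-fold to 3.37-fold and from 0.229-fold through 0.909-fold to 2.04-fold, and the strata overlapped. Its partners Col6a1 (1.07 and 0.936 times) and Col6a2 (1.35 and 1.09 times) varied about as typical genes. Col6a2 had a median of 1.2-fold against 0.880-fold in the 2 strata, and Col8a1, a short-chain collagen of vessels, 1.14-fold against 0.887-fold. Col8a2, its partner, lay the other way, at 0.859-fold against 1.15-fold.

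Of the other 10 genes, Col17a1, a transmembrane collagen of epithelial anchors, varied most (2.50 and 2.98 times), with medians of 0.902-fold and 1.16-fold. Col25a1, a transmembrane collagen of neurons, varied least of the 32 in the Eif2s3y-low stratum (0.623 and 0.552 times). Over all 32 genes the median was 1.34 and 1.32 times the typical SD. In each stratum 6 genes stood at 2 times or more, 18.8% of the collagens beside 10.6% and 9.77% of all genes. At 3 times or more stood Col1a1 alone, 3.12% of the collagens beside 3.82% and 4.00% of all genes. These counts hold for the probes used, and a second probe of Col1a2 stood at 3.13 and 2.75 times.

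**Figure D1:**
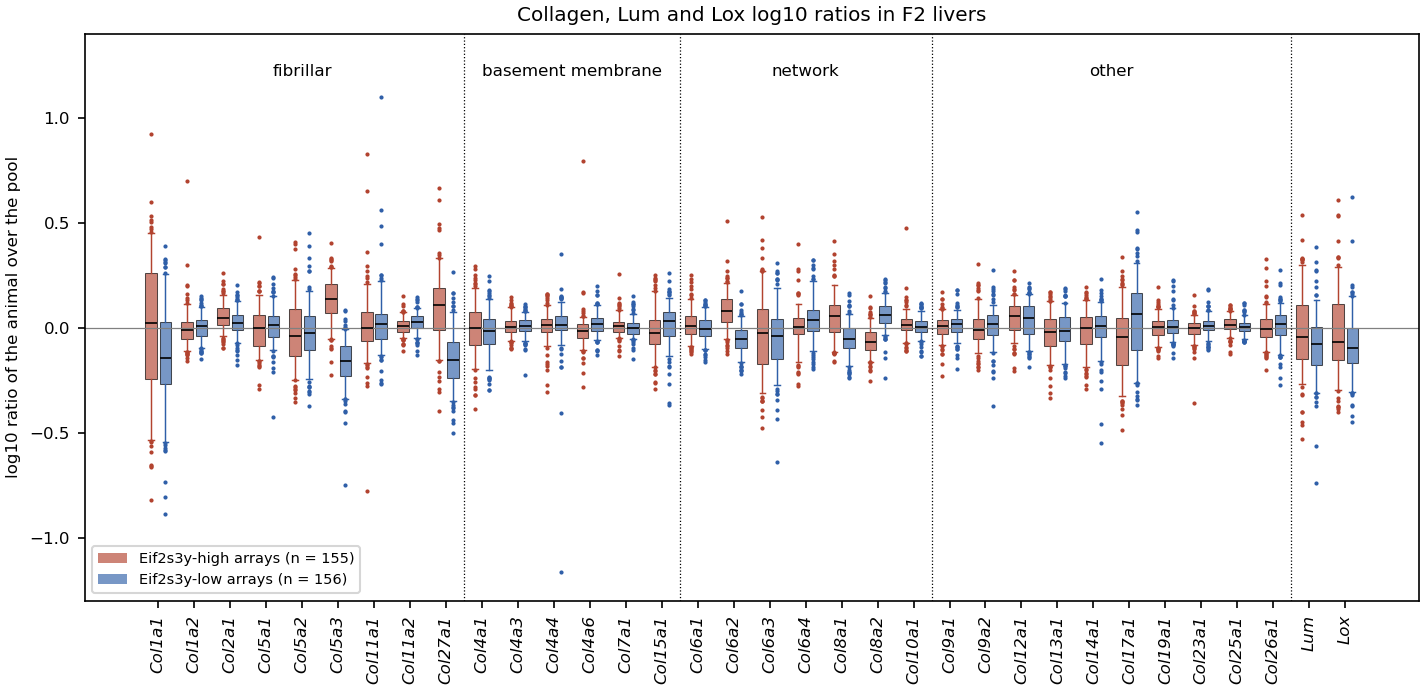
Log10 ratio of each animal over the pool (vertical axis) for 32 collagen genes, Lum and Lox, as boxes for Eif2s3y-high (red, n = 155) and Eif2s3y-low (blue, n = 156) arrays. Boxes span the quartiles with the median as a black line, whiskers the 5th to 95th percentile, and points the animals beyond. Col1a1 has the tallest boxes, Col5a3 and Col27a1 boxes are set apart between strata, and Col4a4, Col4a6 and Col11a1 have narrow boxes with a few distant points.

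Several ranges rested on 1 array. The highest Col1a2 ratio was 4.98-fold, in an animal whose next neighbour stood at 1.98-fold, and that array had the largest SD of all arrays. Col4a6 reached 6.19-fold in 1 animal, with the next at 1.58-fold, and Col10a1, a growth plate collagen, 3.00-fold with the next at 1.54-fold. Col4a4 fell to 0.0682-fold in 1 animal, with the next at 0.394-fold. The Col11a1 extremes were 12.5-fold, followed by 6.74-fold, and 0.167-fold, followed by 0.529-fold. Col1a1 was different in this respect, with 31 animals at 2-fold or more and 31 at 0.5-fold or less in the Eif2s3y-high stratum.

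The collagen family did not vary as a block. Over the 496 pairs of the 32 genes, the mean Pearson r over animals was 0.0313 and 0.0208, beside 0.00181 and 0.00156 over all pairs of genes. Positive values made up 49.4% and 43.5% of collagen pairs, beside 49.3% and 49.2% of all pairs. The upper tail was fuller than that of all genes, with r above 0.3 in 8.47% and 9.48% of collagen pairs beside 4.73% and 4.52%. These are descriptions of pairs that share animals and chains.

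Structural type described the relations only in part. The mean r was 0.0771 and 0.0789 within fibrillar chains, 0.111 and 0.112 within network chains, and 0.00923 and -0.0163 within basement membrane chains. Between fibrillar and network chains it was 0.108 and 0.102, above the mean within fibrillar chains and just below that within network chains. With probes on every array, which leaves fewer genes, the fibrillar mean rose to 0.206 and 0.231 and the network mean stood at -0.00540 and 0.0550, so the order of the types depended on which genes were kept. Among the other 10 genes it was -0.0335 and -0.0111, and none of their 45 pairs had r above 0.3. The highest r of the Eif2s3y-high stratum was 0.920, between Col1a1 and Col5a1. The highest of the Eif2s3y-low stratum was 0.875, between Col1a1 and Col6a3, which stood at 0.916 in the first. The lowest were -0.445, between Col6a3 and Col25a1, and -0.474, between Col4a6 and Col12a1, a fibre-associated collagen.

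**Figure D2:**
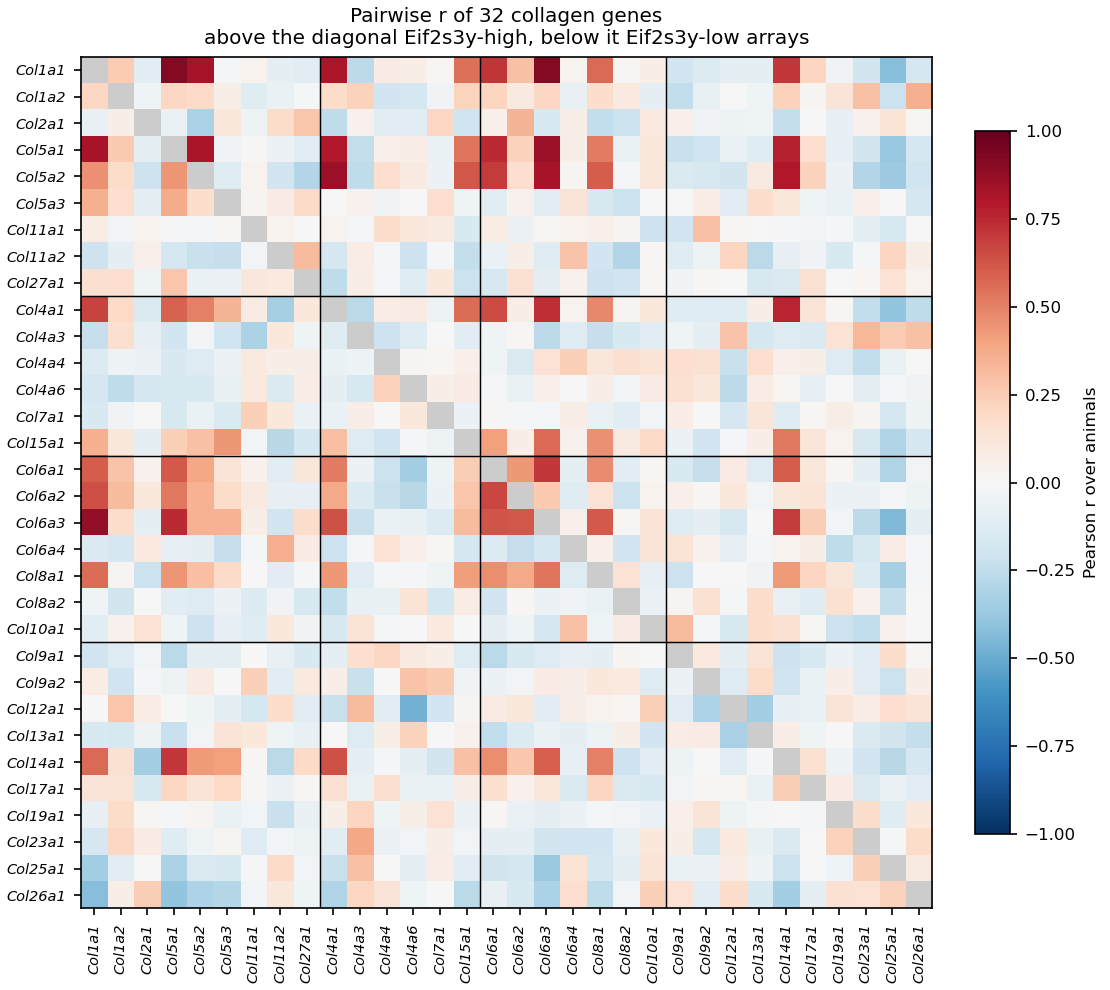
Pearson r over animals for each pair of 32 collagen genes, coloured from -1 (blue) to 1 (red), with Eif2s3y-high arrays above the diagonal and Eif2s3y-low arrays below it; black lines separate fibrillar, basement membrane, network and other genes. The dark red cells lie where Col1a1, Col5a1, Col5a2, Col4a1, Col15a1, Col6a1, Col6a3, Col8a1 and Col14a1 meet, across the type borders, up to 0.920, and most other cells are pale.

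Each gene was then set against Lum and against Lox, by a limma fit of every gene on the standardized ratio of each anchor within a stratum, with p adjusted over 11386 genes and called under 0.05. With Lum, 11 of 32 collagens were higher and 5 lower in the Eif2s3y-high stratum, beside 19.4% and 24.9% of all genes. In the Eif2s3y-low stratum 11 were higher and 4 lower, beside 15.4% and 18.4%. With Lox, 11 were higher and 5 lower, beside 21.0% and 26.2%, and in the other stratum 11 and 6, beside 15.9% and 18.3%. The 11 higher calls are a larger share of the collagens than of all genes in every one of these fits, and the lower calls are a smaller or near-equal share. Lum and Lox themselves had r = 0.844 and 0.628.

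A set of 10 chains was called higher with Lum in both strata: Col1a1, Col5a1 and Col5a2 of the fibrillar type, Col4a1 and Col15a1 of basement membrane, Col6a1, Col6a2, Col6a3 and Col8a1 of networks, and Col14a1, which decorates fibre surfaces. With Lox, 9 of these 10 were called higher in both strata. Col6a2 was the exception, with r = 0.162 (adjusted p = 0.0823) and 0.415 (adjusted p = 1.71e-06).

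Col6a3 had r = 0.832 with Lum in the Eif2s3y-high stratum (Spearman rho = 0.825, permutation p = 1e-05, adjusted p = 6.15e-38) and 0.708 in the other (rho = 0.665, permutation p = 1e-05, adjusted p = 2.88e-22). Its ratio was higher by 0.151 ± 0.00812 and 0.107 ± 0.00855 (SE) on the log10 scale for each SD of Lum. The permutation p is two-sided and is the smallest that 100000 permutations can give. With the 2 animals of most extreme Lum left out, r was 0.821 and 0.666. With Lox, Col6a3 stood at 0.829 and 0.664.

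Col5a2 stood closest to Lox in the Eif2s3y-high stratum, at r = 0.925 (rho = 0.915, adjusted p = 6.18e-63), and lower in the other, at 0.461 (rho = 0.551, adjusted p = 5.32e-08). With Lum it stood at 0.850 and 0.521. In the plot against Lox, several Eif2s3y-low animals with high Col5a2 have low Lox. Col1a1 stood at 0.829 and 0.662 with Lox and 0.767 and 0.650 with Lum. Its ratio was higher by 0.262 ± 0.0142 and 0.158 ± 0.0143 (SE) on the log10 scale for each SD of Lox, the steepest slopes of the 32 genes. Col5a1, which pairs with Col5a2 in type V fibres, stood at 0.809 and 0.498 with Lox and 0.713 and 0.514 with Lum.

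Col4a1 was nearer to Lox (0.819 and 0.639) than to Lum (0.676 and 0.462) in value; the difference was not tested. Col15a1 stood at 0.538 and 0.346 with Lum and 0.614 and 0.256 with Lox. Col14a1 stood at 0.680 and 0.482 with Lum and 0.765 and 0.513 with Lox. Col6a1 (0.626 and 0.528) and Col8a1 (0.621 and 0.462) were alike in their values with Lum. Col6a2 was the only chain of the 10 with the smaller value in the Eif2s3y-high stratum, at 0.244 and 0.517 with Lum.

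The 10 chains also moved with each other. All 45 pairs among them had a positive r in both strata, with a median of 0.607 (0.0668 to 0.920) and 0.463 (0.240 to 0.875). The 220 pairs of 1 such chain with another collagen had a median of -0.0529 and -0.0791, and the 231 pairs of the rest -0.00147 and -0.00904. The chains were chosen by their relation to Lum on the same animals, so these values describe the choice and carry no test. In the Eif2s3y-high stratum 8 of the 16 animals highest in Col1a1 were among the 16 highest in Lum, and 9 of 16 in the other stratum. Not every chain of the 10 shared its top animals with Lum to this extent. In the Eif2s3y-low stratum the count was 8 for Col6a3 and 6 for Col5a1. It was 4 for Col5a2, 4 for Col4a1, 3 for Col15a1 and 2 for Col14a1. Of the chains counted outside the 10, Col11a1 had 3, Col27a1 had 1, Col1a2 had 1, Col17a1 had 0 and Col5a3 had 0. The count that unrelated genes would share was not computed. The Eif2s3y-high counts were 9 for Col6a3, 8 for Col5a1, 11 for Col5a2, 7 for Col4a1, 9 for Col15a1 and 10 for Col14a1. Col11a1 had 1, Col27a1 had 0, Col1a2 had 2, Col17a1 had 4 and Col5a3 had 1 there.

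**Figure D3:**
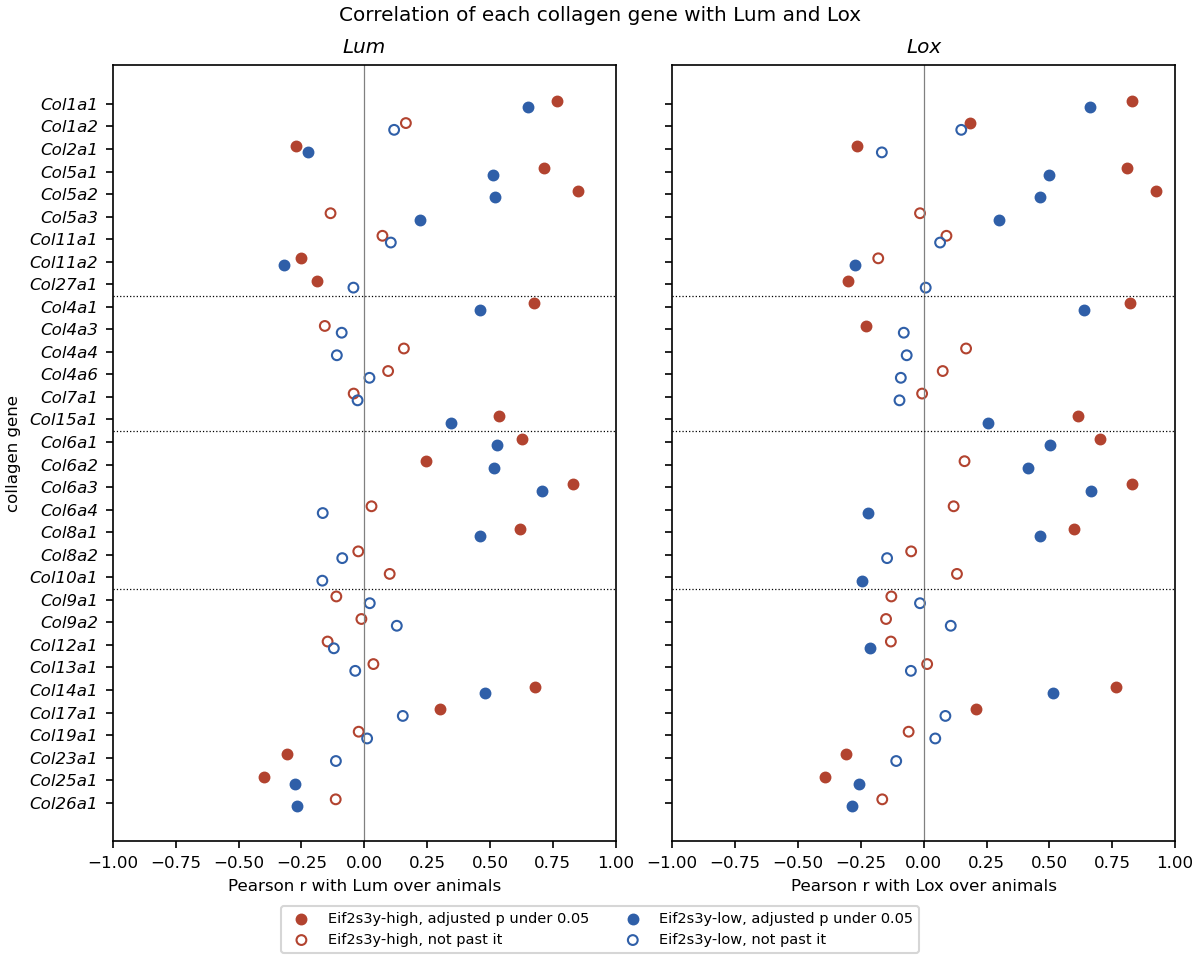
Pearson r over animals (horizontal axis) of each of 32 collagen genes with Lum (left) and Lox (right), in Eif2s3y-high (red) and Eif2s3y-low (blue) arrays, with filled points for an adjusted p under 0.05 in the limma fit. With Lum, 10 genes have both points filled on the right, and only Col2a1, Col11a2 and Col25a1 have both filled on the left.

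**Figure D4:**
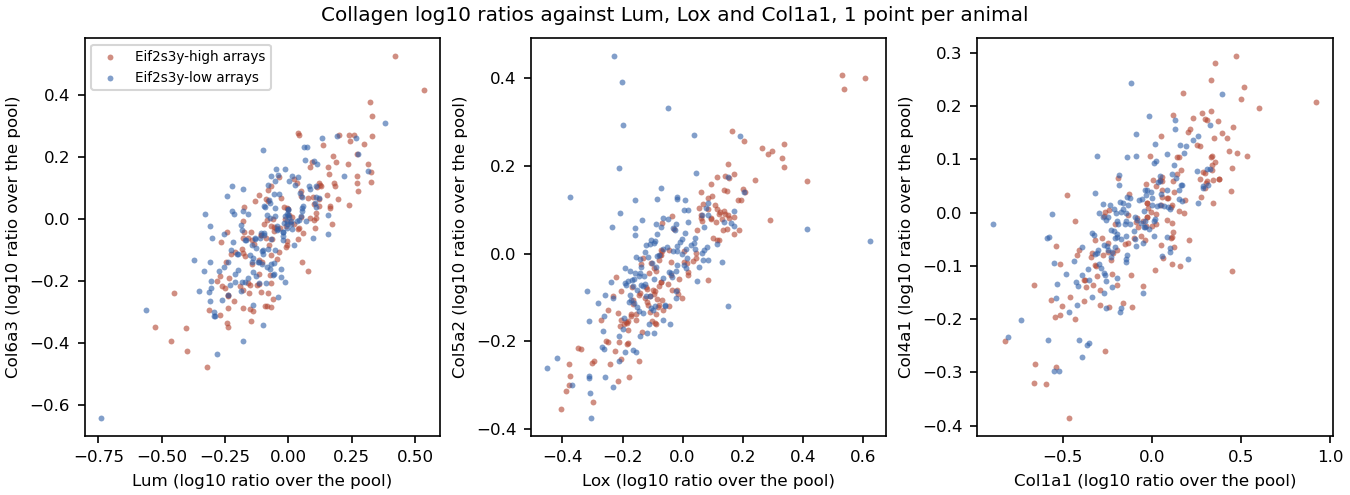
Log10 ratios over the pool, 1 point per animal, of Col6a3 against Lum, Col5a2 against Lox and Col4a1 against Col1a1, in Eif2s3y-high (red) and Eif2s3y-low (blue) arrays. The clouds rise along 1 diagonal in both strata, and a few Eif2s3y-low animals stand above it in the Col5a2 panel.

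Another 3 chains were lower with Lum in both strata. Col25a1 had r = -0.399 (adjusted p = 4.12e-06) and -0.277 (adjusted p = 0.00353), and it alone was also lower with Lox in both, at -0.393 and -0.256. Col11a2 stood at -0.253 and -0.319 with Lum, and Col2a1 at -0.272 and -0.225. The second Col2a1 call was lost without the F2 animals numbered 112 and 218 (-0.180, adjusted p = 0.0751). None of the 3 was called with 5 principal components removed. Col11a2 and Col25a1 had small spreads and Col2a1 about that of a typical gene, with an SD of the 3 between 0.0342 and 0.0644 on the log10 scale. A further 14 chains had no call with Lum in either stratum, and 9 of them had none with Lox either: Col11a1, Col4a4, Col4a6, Col7a1, Col8a2, Col9a1, Col9a2, Col13a1 and Col19a1. Col1a2 is among the 14 by the probe used only, since a second probe of the gene stood at r = 0.755 and 0.638 with Lum. Among the chains of wide spread, Col11a1 had no call with Lum (0.0724 and 0.106). Col27a1 was lower with Lum in the Eif2s3y-high stratum (-0.187, adjusted p = 0.0477), a call lost under several settings, and had no call in the other (-0.0430). Col17a1 was called in the Eif2s3y-high stratum only, at 0.3 (adjusted p = 0.000657) and 0.153 (adjusted p = 0.124), and Col5a3 in the other only, at -0.134 (adjusted p = 0.167) and 0.223 (adjusted p = 0.0183). The Col5a3 call with Lum was lost without the F2 animals numbered 112 and 218 (r = 0.0945, adjusted p = 0.395).

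After 5 principal components of the measured genes were removed within each stratum, 8 and 6 of the 10 chains were still called higher with Lum. With Lox the counts were 9 and 4. Col4a1 lost its call with Lum (0.0732 and -0.0952), as did Col15a1 (0.128 and 0.0778), while Col6a3 kept it, at 0.705 and 0.587. Split at F2 number 186, the median, 9 or 10 of the 10 were called with Lum in each part of each stratum, the exceptions being Col6a2 up to it and Col15a1 above it. The 10 chains were chosen by their calls with Lum on these same animals, so the Lum counts describe stability and are no replication.

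Chains that assemble into the same trimer were set against each other, 9 pairs in all, and each p was adjusted over all genes in the fit on the first chain. Of the type VI chains, Col6a1 and Col6a3 had r = 0.706 (adjusted p = 3.15e-21) and 0.629 (adjusted p = 1.41e-15), and Col6a3 ranked 4 and 6 of all genes by its r with Col6a1. Col6a1 and Col6a2 stood at 0.433 and 0.668, with rank 350 and 3. The fit on Col6a1 called 34.0% and 24.4% of all genes. Col6a2 and Col6a3 stood at 0.261 (adjusted p = 0.0130) and 0.622 (adjusted p = 2.60e-15), where 13.8% and 33.5% of genes were called. The first of these calls was lost among F2 numbers up to 186 (0.2, adjusted p = 0.253) and above it (0.318, adjusted p = 0.174).

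Type V chains Col5a1 and Col5a2 had r = 0.816 (rank 7, adjusted p = 1.28e-35) and 0.440 (rank 452, adjusted p = 1.38e-07), in fits that called 48.1% and 34.8% of genes. The second call was lost with 5 principal components removed (0.178, adjusted p = 0.156). Type XI chains Col11a1 and Col11a2 showed no relation past the threshold (0.0388 and -0.0265), where 1.77% and 1.51% of genes were called. Col8a1 and Col8a2 of type VIII (0.148 and -0.0689, beside 30.3% and 22.7% of genes) and Col9a1 and Col9a2 of type IX (0.0950 and -0.0604, beside 8.47% and 15.5%) did not pass it either. Col4a3 and Col4a4, partners in the glomerular sheet, were lower with each other in the Eif2s3y-high stratum (-0.204, adjusted p = 0.0465) and not past the threshold in the other (-0.0483, adjusted p = 0.723), beside 24.5% and 16.6% of genes. That call was lost without the 10 arrays of largest SD (-0.162, adjusted p = 0.132).

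Col4a2, the partner of Col4a1, could be set against it only on the 142 and 144 animals with a value. With probes on at least 0.5 of arrays admitted, their r was 0.742 (adjusted p = 3.08e-24) and 0.667 (adjusted p = 9.27e-18). In the RefSeq annotation of mouse build GRCm38.p6 the 2 genes lie head to head on chromosome 8, on opposite strands with start sites 21 bases apart. Col4a1 starts at base 11312826 on the minus strand and Col4a2 at base 11312805 on the plus strand, so their annotated first bases overlap. Col4a2 stood at 0.513 and 0.366 with Lum. Col18a1, the source of endostatin and the closest relative of Col15a1, went the other way, at -0.417 and -0.392 with Lum and -0.338 and -0.360 with Col15a1.

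Type I collagen depended on the probe. Col1a1 and the Col1a2 probe used, 10024402890, had r = 0.255 (adjusted p = 0.00354, rank 1966) and 0.210 (adjusted p = 0.0245, rank 1868), in fits that called 22.5% of all genes higher and 27.9% lower, and 18.2% and 21.0% in the other stratum. A second Col1a2 probe with the same gene identifier, 10024408814, had r = 0.857 and 0.754 with Col1a1. It stood at 0.755 and 0.638 with Lum, 0.836 and 0.626 with Lox, and 0.840 and 0.511 with Col5a2. Its SD was 3.13 and 2.75 times the typical SD, beside 1.39 and 0.962 times for the probe used. The 2 probes of the gene correlated at only 0.2 and 0.235. Both had a value on every array, so the earliest listed was used, and the sources used here do not say which reads the transcript better. The genes nearest to the probe used that are not collagens were Rpl12-ps1 (0.733 and 0.598), Bdkrb2, Neurl1b, Trpm4 and Kctd8. This ranking took the lower r of both strata, and Col1a1 stood at rank 446 in it. No such ranking was made for the second probe. Calls and counts given for Col1a2 are those of the probe used unless stated.

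**Figure D5:**
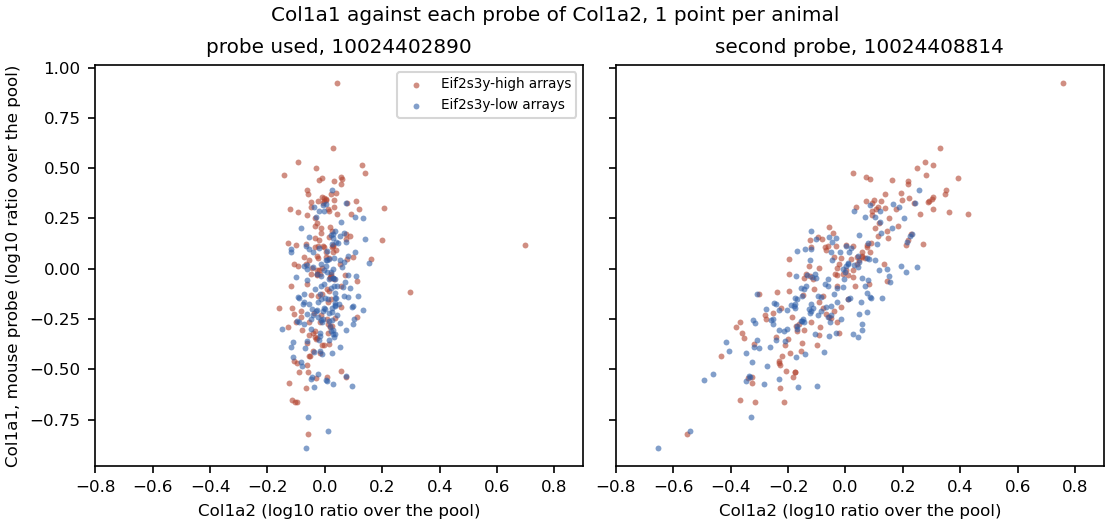
Log10 ratio of Col1a1 (vertical axis) against that of each Col1a2 probe (horizontal axis), 1 point per animal, in Eif2s3y-high (red) and Eif2s3y-low (blue) arrays. The cloud for the probe used (left) is narrow and nearly vertical, with r = 0.255 and 0.210, and that for the second probe (right) lies along a diagonal, with r = 0.857 and 0.754.

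A further 3 probes named Col1a1 carry a rat gene identifier and accession. Their r with the mouse probe lay between -0.220 and 0.0909, and their SD between 0.513 and 1.14 times the typical SD. The earliest listed of them had r = 0.127 and 0.265 with Lum and -0.00828 and 0.146 with Lox. Col23a1 also had a second probe, which stood at -0.0825 and -0.0947 with the first.

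Taking collagens themselves as the reference showed the same contrast. With Col1a2 by the probe used, 3 of 31 other collagens were higher and 1 lower, beside 4.68% and 1.67% of all genes, and in the Eif2s3y-low stratum 7 were higher and 2 lower, beside 14.4% and 14.4%. With each gene read from its probe of largest SD, which is the second probe for Col1a2, 11 were higher in each stratum, beside 20.4% and 16.0% of all genes. With Col4a1, 9 of 31 were higher and 6 lower, beside 21.9% and 26.2%, and 11 and 6 in the other stratum, beside 17.2% and 18.7%. With Col1a1, 11 were higher and 4 lower in the Eif2s3y-high stratum, beside 22.5% and 27.9%, and 11 and 5 in the other, beside 18.2% and 21.0%. Over all settings tried the Col1a2 count ran from 2 to 13 and from 0 to 13. The 13 is from a single fit over all arrays with the stratum as a covariate, and it enters both ranges. The 0 came from limma in the Eif2s3y-low stratum, among F2 numbers above 186 and with 5 components removed, where 3 genes had an unadjusted p under 0.05.

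The promoters below are the 250 bases before the start of Col5a1 and Col6a3, which moved closely with Col1a1, and of Col1a2, whose probes disagreed. They are from RefSeq on build GRCm38.p6, and capitals mark CCAAT, the letters known as the core of NF-Y sites, and GGGCGG, the letters known as the core of Sp1 sites, on either strand. Col1a2 is at chr6:4505368-4505617 on the plus strand, Col5a1 at chr2:27886175-27886424 on the plus strand, and Col6a3 at chr1:90843972-90844221 on the minus strand.
Col1a2: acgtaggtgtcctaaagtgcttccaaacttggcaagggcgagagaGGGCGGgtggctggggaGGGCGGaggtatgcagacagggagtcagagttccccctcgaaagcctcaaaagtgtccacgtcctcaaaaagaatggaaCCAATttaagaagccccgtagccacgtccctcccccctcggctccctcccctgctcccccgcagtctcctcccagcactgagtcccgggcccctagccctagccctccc
Col5a1: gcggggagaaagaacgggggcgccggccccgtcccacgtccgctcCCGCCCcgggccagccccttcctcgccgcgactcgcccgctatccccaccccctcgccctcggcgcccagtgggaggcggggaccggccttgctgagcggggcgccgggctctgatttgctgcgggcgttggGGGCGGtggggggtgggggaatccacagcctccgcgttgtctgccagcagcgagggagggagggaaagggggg
Col6a3: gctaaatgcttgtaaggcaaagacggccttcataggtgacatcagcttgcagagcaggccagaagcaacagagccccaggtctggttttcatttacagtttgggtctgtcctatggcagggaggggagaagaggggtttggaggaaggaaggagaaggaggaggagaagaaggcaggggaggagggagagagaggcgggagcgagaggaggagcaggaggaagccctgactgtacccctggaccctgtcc
The Col1a2 window held 1 CCAAT and 2 GGGCGG, the Col5a1 window 0 and 2, and the Col6a3 window neither. Of the 34 collagen genes 27 had a promoter in the table, 30 promoters in all. GGGCGG was in 18 of these 30 (60.0%), beside 32.7% of 32851 mouse promoters, and CCAAT in 11 of 30 (36.7%) beside 33.8%. Of the 8 promoters of the chains higher with Lum in both strata, 4 held GGGCGG and 1 held CCAAT. These are matches of letters in a window and show no site.

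The genes nearest to the anchors included other matrix genes. By the lower r of both strata, the 5 genes nearest to Lum that are not collagens were Thbs2, a matrix thrombospondin (0.823 and 0.779), Gpm6b (0.822 and 0.751), Lgi2, Itgbl1 and Mmp2, a gelatinase (0.807 and 0.724). Col6a3 held rank 9, Col1a1 rank 20 and Lox rank 28 of all genes. The nearest to Lox were Lama2, a laminin chain (0.822 and 0.724), Fhl2, Svep1, Plat and Ppic, with Col6a3 at rank 8, Col1a1 at 9 and Col4a1 at 11. The nearest to Col4a1 was Nid1 (0.853 and 0.806), the nidogen that links laminin to type IV collagen, followed by Anxa2, Anxa5, Ppic and Vim.

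The lists that follow are read beside the shares of all genes called with Lum, 19.4% higher and 24.9% lower in the Eif2s3y-high stratum and 15.4% and 18.4% in the other. Of 15 genes measured that make and secrete collagen, 6 were higher and 2 lower in the Eif2s3y-high stratum and 5 and 1 in the other. Serpinh1, the collagen chaperone HSP47, stood at 0.727 and 0.626, and with Col1a1 at 0.865 and 0.803. Crtap, of the prolyl 3-hydroxylase complex, stood at 0.561 and 0.449, P3h2 at 0.484 and 0.279 and P3h3 at 0.487 and 0.252. Ppib, a prolyl isomerase of the same complex as Crtap, was lower with Lum (-0.420 and -0.254) and with Col1a1 (-0.491 and -0.426).

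Of 9 processing and crosslinking genes, 3 were higher and 4 lower, and 4 and 3 in the other stratum, where all genes gave 19.4% and 24.9%, and 15.4% and 18.4%. Pcolce, the enhancer of procollagen C-proteinase, stood at 0.708 and 0.609 with Lum and 0.890 and 0.850 with Col1a1. Bmp1, the C-proteinase it enhances, was lower with Lum (-0.435 and -0.381) and with Col1a1 (-0.508 and -0.564). Tgm2, a crosslinking transglutaminase, stood at 0.5 and 0.407, and the Lox relatives Loxl3 at 0.182 and 0.235 and Loxl1 at -0.345 and -0.250.

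Of 6 small proteoglycans beside Lum, 4 were higher and 1 lower in each stratum. Decorin (Dcn) stood at 0.683 and 0.587, biglycan (Bgn) at 0.601 and 0.567, fibromodulin (Fmod) at 0.644 and 0.279 and Ogn at 0.273 and 0.340. Podn was lower, at -0.236 and -0.3. Of 13 turnover genes, 8 were higher and 1 lower, and 6 and 1 in the other stratum. These included the protease Ctsk (0.805 and 0.700), the inhibitor Timp1 (0.637 and 0.656) and the metalloelastase Mmp12 (0.671 and 0.556), so proteases and an inhibitor were both among them. The lowest r were those of Timp4 (-0.145 and -0.282) and Mmp8 (-0.259 and -0.159).

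Of 6 collagen receptors, 4 were higher and 1 lower, and 3 and 0 in the other stratum, where limma gave 0 lower at an unadjusted p under 0.05 as well. The leading receptors were Lair1 of leukocytes (0.550 and 0.364) and Ddr1, a receptor tyrosine kinase (0.621 and 0.344). Of 14 genes of fibrogenic signals, 9 were higher and 1 lower, and 7 and 1. Pdgfra stood at 0.794 and 0.623, Pdgfrb at 0.726 and 0.526 and Tgfb3 at 0.723 and 0.462. Pdgfrb was the gene nearest to Col1a1 that is not a collagen, at 0.935 and 0.858. Tgfb1 did not pass the threshold with Lum (0.0235 and 0.0589), and Pdgfb was lower (-0.386 and -0.242).

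Of 11 basement membrane partners, 6 were higher and 1 lower, and 5 and 0 (0 also at an unadjusted p under 0.05 in limma), beside 19.4% and 24.9%, and 15.4% and 18.4%, of all genes. Lama2 stood at 0.809 and 0.712, Nid1 at 0.736 and 0.535, Nid2 at 0.523 and 0.462 and Lama4 at 0.366 and 0.373, while Lamc3 stood at -0.349 and -0.0824. Of 12 other matrix proteins, 7 were higher and 2 lower in each stratum. They included the elastic-fibre protein Fbln5 (0.734 and 0.598), versican (Vcan, 0.661 and 0.574) and Mfap2 (0.650 and 0.513), with elastin (Eln, -0.249 and -0.204) and Fbn2 (-0.252 and -0.311) lower. Median r with Lum ran from -0.0278 (processing) to 0.621 (other matrix) over these lists in the Eif2s3y-high stratum, beside -0.0371 over all genes.

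Markers of cell types were read beside the same shares of all genes, 19.4% higher and 24.9% lower, and 15.4% and 18.4%. Of 5 stellate cell markers, 4 were higher in each stratum: Pdgfrb, Reln (0.438 and 0.420), the retinyl ester enzyme Lrat (0.435 and 0.392) and Rgs5 (0.303 and 0.271). Of 7 macrophage markers 5 and 4 were higher and 2 and 1 lower, with Ctss at 0.616 and 0.486 and Cd68 at 0.465 and 0.397. The lower macrophage markers were Marco (-0.424 and -0.278) and, in the Eif2s3y-high stratum, Clec4f (-0.264), both of resident Kupffer cells. Of 5 markers of activated fibroblasts 4 and 3 were higher, with Tagln at 0.625 and 0.467 and Acta2 at 0.487 and 0.147, the last value not past the threshold. Cholangiocyte markers gave 3 and 1 of 4 higher and 1 and 0 lower, and endothelial markers 2 and 2 of 7 higher and 1 and 0 lower. The endothelial counts and the second cholangiocyte count are near the share of all genes. Limma also gave 0 lower at an unadjusted p under 0.05 for both lists in the Eif2s3y-low stratum.

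Of 4 hepatocyte markers, 0 were higher and 2 lower in each stratum (0 higher also at an unadjusted p under 0.05 in limma), namely Hnf4a (-0.379 and -0.321) and Tat (-0.379 and -0.286). Markers of skeletal muscle gave 0 of 5 in either direction, also unadjusted. Markers of pancreas gave 0 of 5 higher, also unadjusted, and 1 and 0 lower, with 3 and 0 unadjusted. Adipose markers gave 1 of 4 higher in each stratum (Lpl, 0.635 and 0.388) and 1 and 3 lower, and red cell markers 0 and 1 of 3 higher and 1 and 0 lower. In lists of this size, the higher counts lie near the 19.4% and 15.4% of all genes. The part of these cell types in the relation of collagens to Lum was not tested. Without the 11 arrays that reached 10-fold of the pool on a pancreas or muscle probe, 10 of 10 chains were again called higher with Lum in both strata. They had been chosen by that relation on the full set of animals.

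The same animals lay at the ends for several chains. The F2 animal numbered 112, in the Eif2s3y-low stratum, was lowest for 7 collagens, 6 of them among the 10 higher with Lum, and lowest for Lum (0.182-fold). The F2 animal numbered 218 was highest for 4, all among the 10, with Col1a1 at 8.33-fold, Col6a3 at 3.37-fold, Col5a1 at 2.69-fold and Col6a1 at 1.78-fold. Without both animals, all 10 chains were again called higher with Lum in each stratum, the relation by which they had been chosen. With the SD of the array, Col1a1 stood at r = 0.0134 and -0.119 (rho = -0.0340 and -0.158). The anchors had rho of -0.0419 and -0.207 (Lum) and -0.107 and -0.241 (Lox) with it. These relations to the SD of the array were not tested. Col1a2 by the probe used stood at r = 0.335 and 0.0465 with it. In the Eif2s3y-high stratum rho for Col1a2 was only 0.0462, and the array of largest SD also held the highest Col1a2 ratio.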

How the data were processed

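The authors deposited normalized log10 ratios, 1 per probe and array, of the labelled animal channel (Cy3, per the labels) over the pool (Cy5), limited to -2 and 2. The scale and direction were read from the values. The median Eif2s3y ratio of the high arrays, 0.358, lay near log10 of 2 (0.301), and the slope of probe means on variances was -0.848, where -1.15 is predicted for log10, -0.5 for natural logs and -0.347 for log2. Background correction and normalization are not given in the sources used here. Of 48205 array pairs, 131 correlated under -0.3 (lowest -0.437); the direction was kept, since each sample's labels give its dyes. No further normalization was applied. The number of animals limits the precision.

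Of 23388 probes, 0.745% of values were missing. Genes were named from the platform annotation through Entrez identifiers. Each gene was fitted on the standardized ratio of an anchor in limma 3.58.1 (lmFit, eBayes; R 4.3.3) within each stratum, with Benjamini-Hochberg adjustment over 11386 genes and a threshold of 0.05; the fit was tested on simulated data. Pearson r and Spearman rho of 130 relations to Lum and Lox, and of the 9 pairs, had two-sided permutation p from 100000 permutations (scipy 1.17.1, Python 3.11.15). The probe rule as stated would have read Col1a1 from a probe with a rat gene identifier, so probes with a mouse identifier came first. Named genes were every collagen measured, Lum, Lox, the 5 genes nearest to each anchor, and in each pathway list up to 4 genes of highest and those of lowest r with Lum; further genes were named after their values were seen. The members and lists were chosen with earlier results of these data known. Labels give 1 array per animal. Alternatives changed the centring, probe choice, share of arrays, arrays kept, strata and covariates.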

Additional observations from a re-analysis of the deposited data

How the results depend on the processing

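No paired analysis was possible because each animal is 1 sample and the strata share no replicate numbers. Leaving out each animal in turn was not run, since neither stratum is a group of few replicates. The median SD of the collagens ran from 1.21 to 1.4 and 1.21 to 1.37 times the typical SD, and their mean r from 0.0196 to 0.0380 and 0.0137 to 0.0309. The mean r of single types moved more: fibrillar 0.0162 to 0.206 and 0.0142 to 0.231, network -0.00540 to 0.147 and 0.0550 to 0.149, basement membrane -0.00329 to 0.0226 and -0.0601 to 0.0309. Of the counts of collagens called, 99 stayed within 1.5 times and 17 did not. Of the r with Lum and Lox, 1705 kept their call or lack of one, 70 lost the call, 36 gained it and 21 reversed. The 1705 include r without a call that changed sign, such as Col10a1 with Lum in the Eif2s3y-high stratum (r = 0.101, rho = -0.0701). Of the chain pairs, 244 values kept their call or lack of one, 13 lost the call and 3 reversed. Those lost were of Col1a1 with Col1a2, Col4a3 with Col4a4, Col6a2 with Col6a3 and Col5a1 with Col5a2. The causes were not tested.

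The count of collagens higher with Col1a2, 3 and 7 of 31, was the least stable. It was 7 and 11 with each array centred on its median and 11 and 11 with the probe of largest SD. In the single fit over all arrays with the stratum as a covariate it was 13. In the Eif2s3y-high stratum it was 9 without the 10 arrays of largest spread, 11 by Spearman rho and 6 with the SD of the array as a covariate. In the Eif2s3y-low stratum it was 3 for F2 numbers up to 186, and 0 above it and 0 with 5 components removed (limma, with 3 at an unadjusted p under 0.05 in each). With probes on every array, 6 and 7 collagens were higher with Lox, in place of 11 and 11, and fewer genes were tested; Lum and Col4a1 have missing values and could not be tested there. With 5 components removed, the Eif2s3y-low counts fell from 11 to 6 with Lum, 4 with Lox and 1 with Col4a1.

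The sign changes that involved a call, in the main fit or in the alternative, were as follows. Others occurred without a call and are not listed. In the Eif2s3y-high stratum, for example, r of Col4a3 with Lum ran from -0.205 to 0.169 over the settings. Over all arrays, r with Lox was 0.126 for Col5a3 and -0.180 for Col27a1. For F2 numbers above 186, Col5a3 had -0.0809 with Lum in the Eif2s3y-low stratum. With 5 components removed, Eif2s3y-high r with Lum was 0.0453 for Col2a1, 0.0528 for Col11a2 and 0.106 for Col27a1, and with Lox 0.0395 for Col2a1, 0.0520 for Col4a3 and 0.00839 for Col25a1. Eif2s3y-low r with Lum was -0.137 for Col5a3, 0.0845 for Col11a2, -0.0952 for Col4a1, -0.00674 for Col14a1 and 0.0237 for Col26a1. With Lox it was -0.0667 for Col5a3, 0.131 for Col11a2, -0.103 for Col15a1, -0.000549 for Col14a1, 0.0266 for Col25a1 and 0.0606 for Col26a1. The pair Col1a1 and Col1a2 stood at -0.222. With the Col1a1 probe of rat identifier, chosen as an alternative after seeing the data, as was leaving out animals 112 and 218, Col1a1 had -0.00828 with Lox in the Eif2s3y-high stratum, and the pair Col1a1 and Col1a2 stood at -0.177 and -0.165.

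Without animals 112 and 218, calls were lost for Col1a2 with Lox (0.179, adjusted p = 0.0530 in limma) and Col17a1 with Lox (0.173, 0.0648) in the Eif2s3y-high stratum, and for Col2a1 (-0.180, 0.0751), Col5a3 and Col26a1 (-0.194, 0.0514) with Lum in the other. The ratios carry no signal over background, so low expression behind a narrow spread could not be assessed.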
